A study of Populus ussuriensis with 20 samples.

Results

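In the rooting stem base of Populus ussuriensis (Ussuri poplar), 20 genes were lower 24 h after the cuttings were moved to fresh liquid medium than at 2, 4 and 12 h, by at least 0.8 on a log2 scale. They were 20 of 24934 genes tested, out of 34699 genes listed. Without regard to size, 3662 tested genes (14.69%) had the lowest of their 5 time means, 8 h included, at 24 h. Cuttings from plants 3 weeks old had stood for 5 days on solid Woody Plant Medium, with 16 h of light and 8 h of darkness a day, until root primordia formed. They then went into a liquid, modified form of that medium, with phosphate given as KH2PO4 at 10 µM or at 200 µM. Basal stem ends, primordia and nearby tissue together, were taken 2, 4, 8, 12 and 24 h later. Every time and phosphate level had 2 libraries, which made 20 in all. All groups shared the transfer itself and the species. The labels name no clone and do not say whether replicates were separate plants or cultures, so p-values measure only the spread between these libraries, which may be technical. Samples were whole stem ends, in which fewer cells of a type and less RNA per cell cannot be told apart. Time after transfer cannot be told apart from time of day in the light cycle.

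Adventitious roots are roots that arise from stem or leaf tissue rather than from another root. In poplar cuttings they start as primordia near the cut end, and their growth out of the stem follows wounding, hormone supply and nutrient supply. Phosphate is a main plant nutrient, and many plants change root growth when it is scarce. The identifiers of the genes are those of the poplar gene models, in which the first number gives the chromosome. The files do not pair them with names or descriptions, so no function is given for any of the 20 genes, and no list of pathway genes or cell type markers could be applied.

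The genes were chosen on the measured values themselves. Expression was given as FPKM, fragments scaled by gene length and by library total, and was taken as log2(FPKM + 1). A gene was tested if it reached 1 FPKM in at least 2 libraries. It was kept if its mean over the 4 libraries at 24 h (both phosphate levels) lay at least 0.8 below the lowest of its means at 2, 4 and 12 h, and at least 0.4 below at each phosphate level alone. This difference is called the drop. The 8 h libraries played no part in the choice. The rule was met by 0.0802% of the tested genes. A further 2 genes, Potri.006G128300 and Potri.007G144400, had a drop of at least 0.8 but missed the requirement at a phosphate level. The mirrored rule, for genes raised at 24 h, was met by 79 genes. All 20 genes passed the filter on low values by construction.

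Because the drop chose the genes, its size is a description and carries no test. It ranged over the 20 genes between 0.83 and 1.87, with a median of 1.06, against a median of -0.14 over all tested genes. In terms of mean FPKM, the level at 24 h was between 0.221 and 0.592 of the lowest mean at 2, 4 or 12 h, with a median of 0.443. The 3 genes just inside the threshold had drops of 0.83 (Potri.002G229300), 0.84 (Potri.004G180100) and 0.84 (Potri.005G214200). The 3 just outside had drops of 0.78 (Potri.004G182100), 0.77 (Potri.003G161000) and 0.77 (Potri.002G175400).

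**Figure D1:**
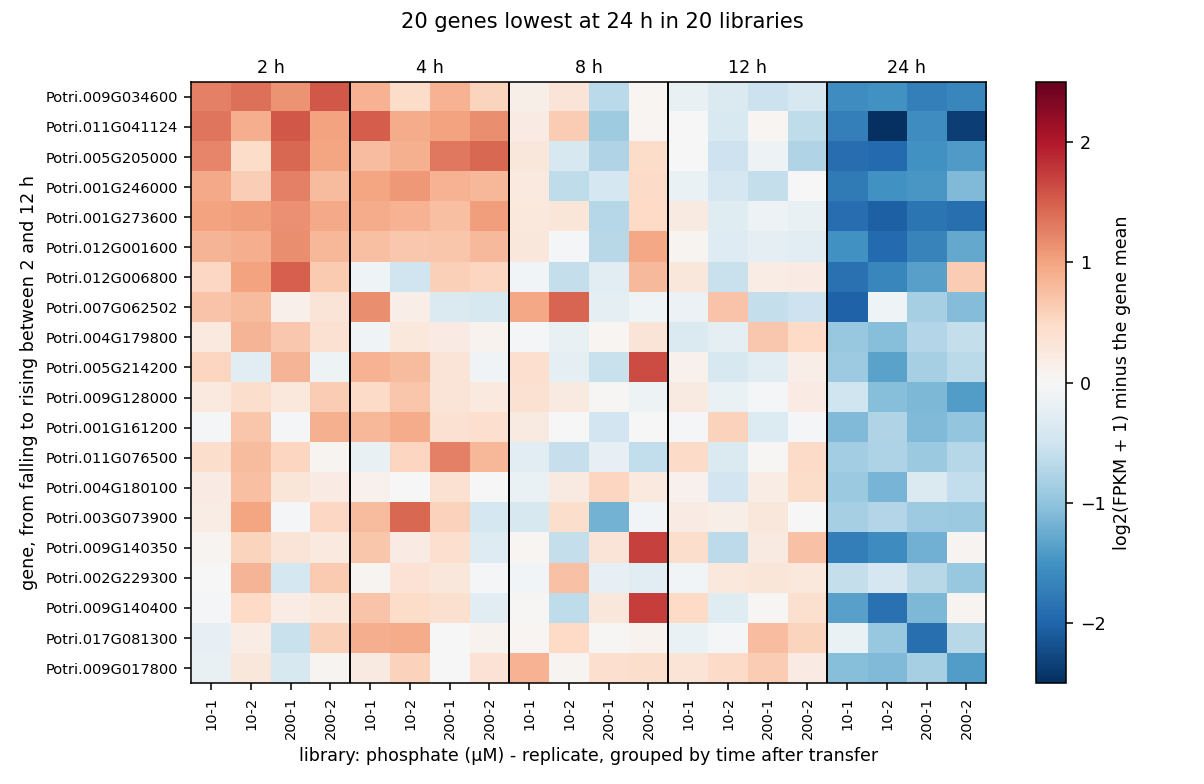
Each row is 1 of the 20 genes and each column 1 of the 20 libraries, grouped by time after transfer and labelled by phosphate level and replicate, with colour giving log2(FPKM + 1) minus the gene's mean. The 24 h block is blue in nearly every cell, and the upper rows also pale between 2 h and 12 h; the exceptions at 24 h are 3 genes in replicate 2 at 200 µM.

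Potri.011G041124 had the largest drop. At 10 µM its 2 libraries measured 77.9 and 57.0 FPKM at 2 h, 87.2 and 58.1 at 4 h, 34.6 and 47.0 at 8 h, 29.8 and 22.9 at 12 h, and 8.52 and 3.39 at 24 h. At 200 µM they measured 90.3 and 61.4 FPKM at 2 h, 61.3 and 68.6 at 4 h, 15.7 and 31.2 at 8 h, 31.2 and 19.02 at 12 h, and 9.60 and 5.09 at 24 h. All 4 libraries at 24 h lay below all 16 others, and the libraries at 12 h already lay below all of those at 2 h and 4 h. Its drop was 1.87 over both levels, 2.07 at 10 µM and 1.66 at 200 µM. This gene model is only 177 bases long, so the values at 24 h rested on 23 and 9 fragments at 10 µM and on 26 and 14 at 200 µM.

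Potri.001G273600 had the next largest drop and was the most abundant member, with a mean of 70.7 FPKM over the 20 libraries. At 10 µM it measured 114.0 and 117.2 FPKM at 2 h, 108.5 and 103.7 at 4 h, 68.2 and 70.1 at 8 h, 66.0 and 45.4 at 12 h, and 14.3 and 12.9 at 24 h. At 200 µM it measured 126.0 and 110.2 FPKM at 2 h, 96.4 and 117.7 at 4 h, 33.8 and 80.1 at 8 h, 51.4 and 49.4 at 12 h, and 15.2 and 14.5 at 24 h. The libraries at 24 h were close together, averaging 14.2 ± 0.963 FPKM against 53.0 ± 9.02 FPKM at 12 h (SD, n = 4 each). They did not overlap with any earlier library, and each held at least 597 fragments of this gene.

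The drop at 24 h was not the first decline in all 20 genes. In 8 of them the mean at 12 h was already at least 0.4 below that at 2 h, a step met by 8.74% of all tested genes. In 11 the means at 12 h and 2 h lay within 0.4 of each other, and in 1 gene 12 h was higher by 0.48. The name "lowered only at 24 h" therefore does not describe the 8 declining genes, which are better called lowest at 24 h. In these 8 the change from 2 h to 12 h was between -1.70 and -0.63 (log2), and the change from 2 h to 24 h had a median of -2.63. In the 11 genes within 0.4 the change from 2 h to 24 h had a median of -1.28. Their change from 2 h to 12 h lay between -0.39 and 0.28, so not all of them were level before 24 h. The division at 0.4 was made with the values known and uses libraries that chose the genes, so it is descriptive only.

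The declining genes included the 3 with the largest drops (Potri.011G041124, Potri.001G273600 and Potri.012G001600) and Potri.009G034600. These 4 were the only ones of the 20 whose mean over both phosphate levels fell at every step, 8 h included. At single levels Potri.011G041124 did not fall at every step. Its mean rose from 67.4 to 72.7 FPKM between 2 h and 4 h at 10 µM. At 200 µM it rose from 23.4 to 25.1 FPKM between 8 h and 12 h. Potri.012G001600 averaged 55.9 ± 6.53 FPKM at 2 h and 48.1 ± 1.99 FPKM at 4 h (SD, n = 4 each). Its mean was 34.2 ± 16.7 FPKM at 8 h, then 24.9 ± 3.38 FPKM at 12 h and finally 8.85 ± 1.89 FPKM at 24 h. The spread was widest at 8 h, where the libraries at 200 µM stood at 17.2 and 56.8 FPKM. To account for the remaining members, Potri.005G205000 and Potri.001G246000 were also among the 8 declining genes, with drops of 1.35 and 1.16. Potri.009G128000 and Potri.001G161200 were among the 11 genes within 0.4 between 2 h and 12 h, with drops of 1.08 and 1.02. All 4 libraries at 12 h lay below all 4 at 2 h in 8 of the 20 genes, against 10.2% of the tested genes. These were 7 of the declining genes and Potri.009G128000, and the rule used both times.

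**Figure D2:**
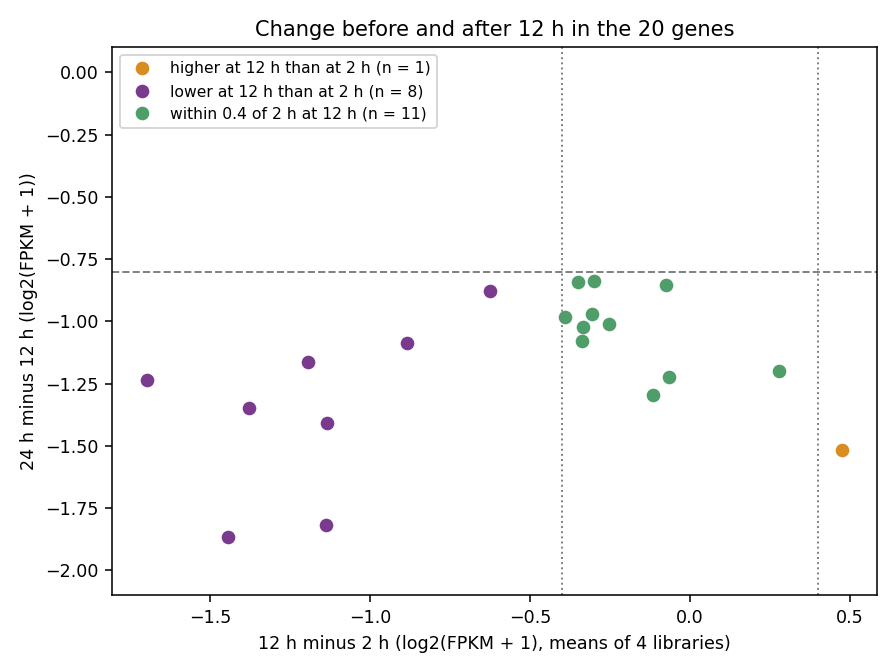
Each point is 1 of the 20 genes; the horizontal axis is the change from 2 h to 12 h and the vertical axis the change from 12 h to 24 h, both in log2(FPKM + 1) from means of 4 libraries. The 8 declining genes lie left of the dotted line at -0.4, and every gene lies below the dashed line at -0.8, which the rule requires.

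The single gene that was higher at 12 h than at 2 h by at least 0.4 was Potri.009G017800. At 10 µM it measured 4.55 and 6.72 FPKM at 2 h, 6.44 and 8.41 at 4 h, 10.7 and 5.64 at 8 h, 7.08 and 7.84 at 12 h, and 2.04 and 1.94 at 24 h. At 200 µM it measured 3.81 and 5.67 FPKM at 2 h, 5.40 and 7.16 at 4 h, 7.46 and 7.65 at 8 h, 8.81 and 6.36 at 12 h, and 2.55 and 1.43 at 24 h. All 4 libraries at 24 h lay below the other 16. For this gene the lowest earlier mean was that at 2 h, so that its change from 12 h to 24 h was -1.52, larger than its drop of 1.04.

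The lowest of the 3 earlier means was that at 12 h in 16 of the 20 genes, at 4 h in 2 (Potri.004G179800 and Potri.002G229300) and at 2 h in 2 (Potri.009G017800 and Potri.017G081300). The highest of the 5 time means was at 2 h in 8 genes, at 4 h in 8 and at 8 h in 4. It was at 12 h or 24 h in 0 genes. In 13 of the 20 genes all 4 libraries at 24 h lay below all 12 libraries at 2, 4 and 12 h, against 0.778% of tested genes; the rule used this contrast.

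**Figure D3:**
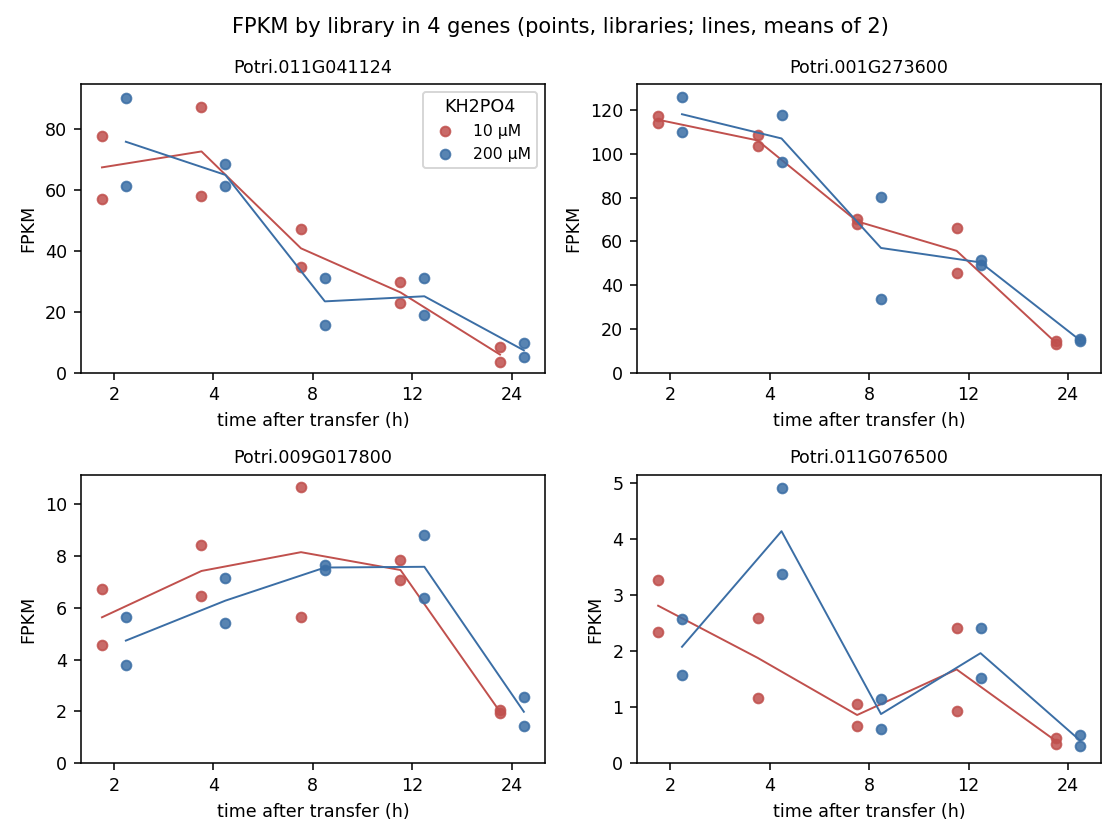
FPKM (linear axes starting at 0) against time after transfer (times evenly spaced, not to scale) for 4 of the genes, with each library as a point and lines joining the means of 2 libraries; 10 µM is drawn left of 200 µM. Potri.001G273600 declines at every step at both levels. Potri.011G041124 is lowest at 24 h at both levels, but its line rises from 2 h to 4 h at 10 µM and from 8 h to 12 h at 200 µM. Potri.009G017800 holds or climbs until 12 h. Potri.011G076500 is below 1.2 FPKM in all 4 libraries at 8 h, with a higher mean at 12 h.

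The 8 h libraries show where the genes stood at a time that the rule did not use, although the levels they are set against did choose the genes. The mean at 8 h lay above the mean at 24 h in 20 of 20 genes, by a median of 1.31 (log2), where the median over all tested genes was -0.04. All 4 libraries at 24 h lay below all 4 at 8 h in 15 of the 20 genes, against 3.02% of tested genes. The position at 8 h was expressed on a scale on which 0 is the 24 h mean and 1 the lowest mean of 2, 4 and 12 h. Its median over the genes was 1.15, and 14 of the 20 genes stood at 1 or higher. Since the 24 h values and the lowest earlier mean chose the genes, an 8 h mean above that at 24 h is favoured by the choice. These counts and positions are therefore a description.

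Potri.011G076500 and Potri.003G073900 had the lowest 8 h positions, at 0.42 and 0.54. Potri.011G076500 was the weakest expressed of the 20. At 8 h it measured 1.06 and 0.66 FPKM at 10 µM, and 1.14 and 0.62 FPKM at 200 µM. At 24 h it measured 0.35 and 0.44 FPKM at 10 µM, and 0.30 and 0.51 FPKM at 200 µM. The libraries at 8 h lay below those at 2 h (between 1.59 and 3.28 FPKM) and above those at 24 h. The fall was not steady, with means of 0.87 FPKM at 8 h, 1.82 FPKM at 12 h and 0.40 FPKM at 24 h. The values at 24 h rested on 7 to 12 fragments per library.

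Potri.003G073900 measured 7.29 and 13.7 FPKM at 10 µM and 8 h, and 3.78 and 9.35 FPKM at 200 µM and 8 h. At 24 h its 4 libraries lay between 4.69 and 5.56 FPKM, so 1 library at 8 h was lower than all of them. Its mean was 8.53 FPKM at 8 h and 11.2 FPKM at 12 h. Its gene model has 192 bases.

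At the other end, Potri.007G062502 and Potri.005G214200 had the highest 8 h positions, at 1.76 and 1.5. Potri.007G062502 measured 26.8 and 38.0 FPKM at 10 µM and 8 h, and 11.2 and 12.1 FPKM at 200 µM and 8 h. Potri.005G214200 measured 21.6 and 13.5 FPKM at 10 µM and 8 h, and 10.5 and 50.8 FPKM at 200 µM and 8 h. For this second gene the position was set largely by 1 library, replicate 2 at 200 µM.

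That library stood apart from its replicate for most of the genes. At 200 µM and 8 h, 16 of the 20 genes were higher in replicate 2 than in replicate 1, against 47.31% of tested genes. The median difference was 0.82 (log2), whereas over all tested genes it was -0.02. Shared shifts also occurred in other groups. At 10 µM and 2 h, 16 of the 20 were higher in replicate 2 (median 0.37), against 48.06% of tested genes. At 10 µM and 12 h, 6 were (median -0.38), against 46.34%. In the remaining groups 7 to 12 were. For 200 µM and 8 h, replicate 2 gave a median 8 h position of 1.28 and replicate 1 one of 0.74. At 10 µM the positions were 1.19 and 1.12. With either of the 2 libraries at 200 µM and 8 h left out, the median position was 1.2 (without replicate 1) or 1.02 (without replicate 2).

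**Figure D4:**
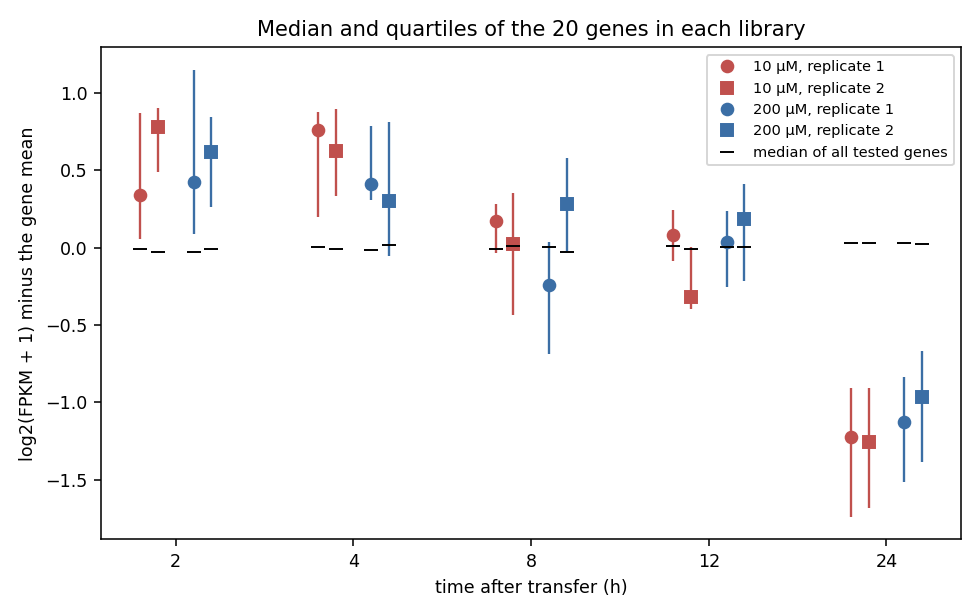
For each library, the median (circle, replicate 1; square, replicate 2) and quartiles (line) over the 20 genes of log2(FPKM + 1) minus the gene mean, with a dash for the median of all 24934 tested genes. The 4 libraries at 24 h have medians between -1.26 and -0.97, the other 16 between -0.32 and 0.78, and the dashes stay near 0 throughout.

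Library by library, the median of the 20 genes at 24 h relative to the gene means was -1.23 and -1.26 (log2) at 10 µM, and -1.13 and -0.97 at 200 µM. All 20 genes were below their own mean in 3 of these 4 libraries. In replicate 2 at 200 µM the number was 17. The 3 exceptions there were Potri.012G006800 at 45.4 FPKM, Potri.009G140350 at 42.2 FPKM and Potri.009G140400 at 23.9 FPKM.

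The library totals, worked out from the steps between low FPKM values, lay between 14053677 and 15764764 fragments, a 1.12-fold range. Those at 24 h, between 14994601 and 15552923, were within the range of the other times. A member had between 5 and 5717 fragments in a library. The median tested gene and library had 253 fragments. Replicate libraries differed beyond counting noise in every group, with a chi-square per degree of freedom of 4.05 or higher, which gives no sign of a repeated library and does not show separate plants.

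The 20 genes also differed more between replicate libraries than tested genes did in general. The rule used means only, but a gene with a wide spread can reach an extreme mean more easily, so this is a description. The median absolute difference between the 2 replicates of a group, over 10 groups, had a median of 0.34 (log2) in the 20 genes and 0.16 in all tested genes. Among genes with a mean of at least 100 fragments it was 0.42 in the 12 members that reached this depth and 0.14 in the 18411 tested genes that did. Potri.001G273600 was an exception, with a median of 0.10.

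Potri.009G140350 and Potri.009G140400 carry successive identifiers, with 0 other genes of the table between them. Potri.009G140350 measured 11.5 and 13.01 FPKM at 10 µM and 24 h, and 16.96 and 42.2 FPKM at 200 µM and 24 h. Potri.009G140400 measured 8.26 and 5.55 FPKM at 10 µM and 24 h, and 9.87 and 23.9 FPKM at 200 µM and 24 h. In both genes the second library at 200 µM reached into the range of earlier times, so that the groups overlapped. At 200 µM and 8 h the first gene measured 51.0 and 133.8 FPKM and the second 28.0 and 77.6 FPKM.

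The replicate differences of the 2 neighbours were alike, in data where many members shifted together by library. Over the 10 groups, the difference between replicate 2 and replicate 1 in one gene correlated with that in the other with Pearson's r = 0.95 (permutation test, two-sided p = 0.0002) and Spearman's rho = 0.95 (permutation test, p = 0.00016). These p-values test against 0, and this was the only pair tested, so adjusted values are the same. Over all 190 pairs of the 20 genes, given with no test, the median r was 0.15 and the next highest 0.91. Potri.012G006800, on another chromosome, reached 0.86 with Potri.009G140350, so a high value was not particular to the neighbours. Without the 2 groups farthest from the median r was 0.87 over 8 groups. The ratio of Potri.009G140350 to Potri.009G140400 in FPKM stayed between 1.39 and 2.35 in the 20 libraries, with a median of 1.77. How reads that match more than 1 gene were counted is not given in the sources used here, so reads shared between these genes cannot be told apart from separate transcripts. The next listed genes on either side that were tested, Potri.009G140200 (drop 0.01) and Potri.009G140500 (drop -0.23), did not share the pattern.

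By the first number of the identifier, the 20 genes fell on 10 of the 19 chromosomes. Chromosome 9 held 5 of them, 25% of the set, against 4.58% of tested genes; 2 of the 5 were the neighbours just described. Chromosome 1 held 3 genes, and chromosomes 4, 5, 11 and 12 held 2 each. Potri.004G179800 and Potri.004G180100 were also near each other, with 10 listed genes between them. The gene models were short: the median length, recovered with the fragment numbers, was 1025.5 bases in the 20 genes and 1807 bases in all tested genes. Models under 1 kb made up 10 of the 20 genes and 16.8% of tested genes. Mean FPKM ranged from 1.71 to 70.7 with a median of 16.7, against a median of 8.73 in all tested genes.

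The drop was present at both phosphate levels, as the rule demands. Its median over the genes was 1.22 at 10 µM and 0.96 at 200 µM, and 14 of the 20 genes had the larger drop at 10 µM. A drop of at least 0.8 was reached by 17 genes at 10 µM, by 14 at 200 µM and by 11 at both. The difference between the levels was largest for Potri.009G140400, with 1.71 at 10 µM and 0.59 at 200 µM, where replicate 2 at 24 h was the high library described above. In the opposite direction Potri.017G081300 had a drop of 0.45 at 10 µM and 1.30 at 200 µM. Since the rule set a floor at each level, these differences carry no test.

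The rule did not use the phosphate difference directly. Its requirement at each level did bear on the values at 2, 4, 12 and 24 h, and removed 2 genes, so only the difference at 8 h is free of it. The phosphate level was tested with limma, fitted to all 24934 genes and 20 libraries, as the mean over the 5 times of the difference 10 minus 200 µM. With Benjamini-Hochberg adjustment at 0.05, 0 of the 20 genes passed; of all tested genes 0.0441% did. The smallest adjusted p among the 20 was 0.373. The mean difference was positive in 10 genes and negative in 10, with a median of 0.01 (log2), against 0.00 over all tested genes. An unadjusted p under 0.05 was reached by 7 of the 20 genes, against 7.13% of tested genes. The 7 were 3 genes with higher values at 10 µM and 4 with lower values, and when single libraries were left out the number lay between 4 and 10. Both extremes came from the pair at 200 µM and 2 h, with 4 when its replicate 1 was dropped and 10 when its replicate 2 was. The other tool, limma's voom on the recovered fragments, likewise gave 0 of the 20 past the adjusted threshold and 6 at an unadjusted p under 0.05.

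**Figure D5:**
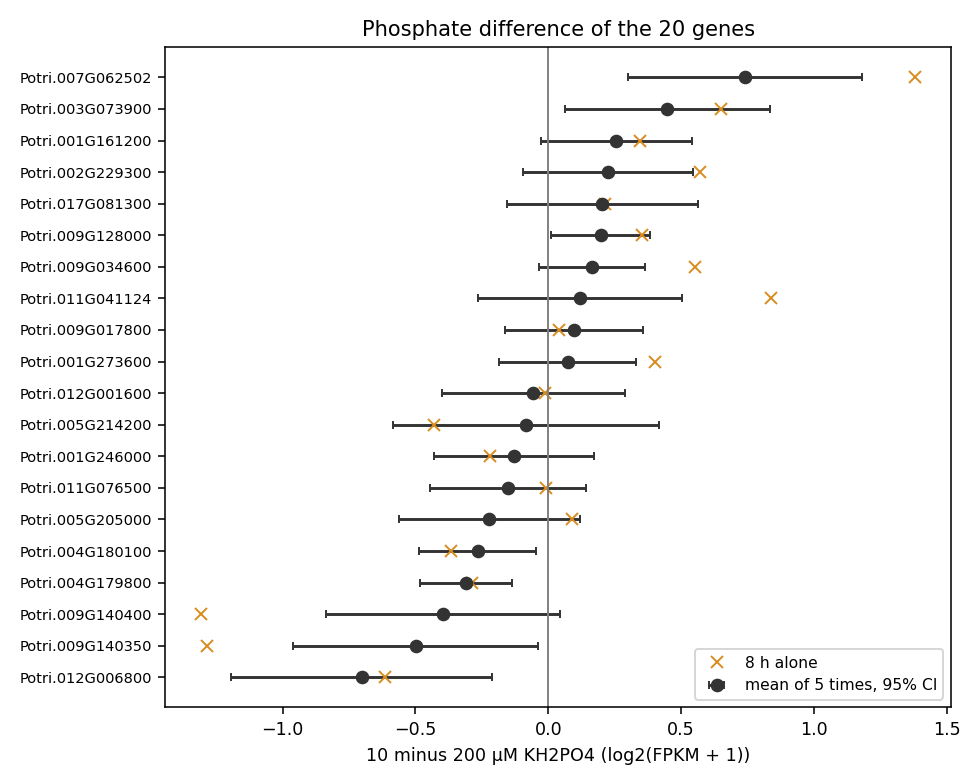
The difference 10 minus 200 µM in log2(FPKM + 1) for each of the 20 genes, as the mean over 5 times with its 95% confidence interval (limma) and, as a cross, at 8 h alone. The means over 5 times spread to both sides of 0, from -0.70 to 0.74, and the crosses from -1.31 to 1.38. By either measure 0 of the genes passed the adjusted threshold.

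The 2 genes with the highest mean differences were Potri.007G062502 and Potri.003G073900. Potri.007G062502 measured, at 10 µM, 22.2 and 23.6 FPKM at 2 h, 30.9 and 15.02 at 4 h, 26.8 and 38.0 at 8 h, 11.9 and 22.2 at 12 h, and 2.47 and 12.2 at 24 h. At 200 µM it measured 14.5 and 16.7 FPKM at 2 h, 10.0 and 9.69 at 4 h, 11.2 and 12.1 at 8 h, 8.38 and 8.89 at 12 h, and 6.99 and 5.66 at 24 h. Both 10 µM libraries lay above both 200 µM libraries at 2, 4, 8 and 12 h, and at 24 h they lay on either side. Groups of 2 libraries can separate easily by chance, here and in the genes below, which were named for extreme values. The share of tested genes with such a separation is not given here, so it is a description. The mean difference was 0.74 ± 0.21 (log2, SE), with an adjusted p of 0.427 in limma. Without replicate 1 at 10 µM and 24 h, the library at 2.47 FPKM, the difference was 0.93 and the gene passed the threshold in limma (adjusted p = 0.0439). The gene model has 159 bases, and its values rested on 6 to 85 fragments.

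Potri.003G073900 had a mean difference of 0.45 ± 0.18 (log2, SE; limma, adjusted p = 0.659). Its widest separation was at 4 h, with 17.9 and 28.3 FPKM at 10 µM and 15.1 and 7.03 FPKM at 200 µM, where the groups did not overlap.

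The 2 genes with the lowest mean differences were Potri.012G006800 and Potri.009G140350. Potri.012G006800 measured, at 10 µM, 41.9 and 58.7 FPKM at 2 h, 26.9 and 20.2 at 4 h, 27.6 and 18.7 at 8 h, 35.4 and 19.4 at 12 h, and 7.19 and 8.71 at 24 h. At 200 µM it measured 82.9 and 46.4 FPKM at 2 h, 44.4 and 42.6 at 4 h, 24.0 and 51.7 at 8 h, 32.9 and 33.7 at 12 h, and 10.6 and 45.4 at 24 h. The groups did not overlap at 4 h and at 24 h, and at the other times they did. The mean difference was -0.70 ± 0.23 (log2, SE; limma, adjusted p = 0.526). For Potri.009G140350 it was -0.50 ± 0.21 (adjusted p = 0.677), and this gene's neighbour stood at -0.40 ± 0.21 (adjusted p = 0.737).

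Potri.004G179800, chosen after its values were seen, had the smallest unadjusted p of the 20. Its mean difference was -0.31 ± 0.08 (log2, SE; limma, adjusted p = 0.373). At 12 h it measured 6.09 and 6.74 FPKM at 10 µM, against 13.4 and 11.8 FPKM at 200 µM, a log2 difference of -0.88 ± 0.18 (limma, adjusted p = 0.413). The groups did not overlap at that time.

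At 8 h, in libraries that the rule did not use at all, 0 of the 20 genes passed between 10 and 200 µM, as did 0 of all tested genes (0%). The smallest adjusted p among the 20 was 0.79 in limma. An unadjusted p under 0.05 was reached by 4 of the 20, against 5.96% of tested genes, and by 0 without replicate 2 at 10 µM and 8 h. When instead replicate 1 of the same pair was left out, 352 of all tested genes passed the adjusted threshold, and still 0 of the 20. Higher at 10 µM among these 4 were Potri.007G062502, with a log2 difference of 1.38 ± 0.46 (SE), and Potri.009G034600, with 0.55 ± 0.21. The neighbours Potri.009G140350, at -1.28 ± 0.48, and Potri.009G140400, at -1.31 ± 0.46, were lower at 10 µM. For both neighbours the size rested on the libraries at 200 µM. The log2 differences were -0.60 and -0.59 without replicate 2, and -1.97 and -2.03 without replicate 1. Potri.011G041124 had the second highest value at 8 h, 0.84 ± 0.40, and its groups, 34.6 and 47.0 FPKM at 10 µM against 15.7 and 31.2 FPKM at 200 µM, did not overlap. Its difference was 0.36 without replicate 1 at 200 µM and 1.31 without replicate 2.

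At the other times limma again gave 0 of the 20 genes past the adjusted threshold, as it gave 0 of all tested genes (0%). An unadjusted p under 0.05 was reached by 0 genes at 2 h (1.97% of tested genes), 4 at 4 h (3.59%), 2 at 12 h (4.54%) and 5 at 24 h (5.1%). The median 95% confidence interval of a tested gene extended 0.158 (log2) on either side for the mean difference and 0.353 at 8 h, both without adjustment for the number of genes. Much larger differences also missed the adjusted threshold, such as those of Potri.007G062502 at 8 h and Potri.004G179800 at 12 h above. The intervals of all 20 genes reached further. They extended from 0.17 (Potri.004G179800) to 0.50 (Potri.005G214200) for the mean difference, and from 0.39 to 1.12 at 8 h in the same 2 genes. For Potri.001G273600, whose mean difference was 0.07, the interval extended 0.26 on either side, and for Potri.012G006800 it was 0.49.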

How the data were processed

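RNA sequencing of 20 libraries was used. The authors deposited FPKM values for 34699 genes; HISAT2 2.1.0 and Bowtie2 2.2.3 are named, with no role, per the submitters' processing notes. Genome build, annotation and FPKM program were not given in the sources used here. All value columns were used.

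Genes with at least 1 FPKM in at least 2 libraries were kept and taken as log2(FPKM + 1), a scale that understates changes of low genes. Whole fragments, to within 0.06 of a fragment, were recovered for 24934 tested genes by a search over lengths of 60 to 20000 bases. limma 3.58.1 (R 4.3.3) was fitted with 1 mean per group, a mean-variance trend and two-sided Benjamini-Hochberg adjusted tests over all genes. Scripts were tested on simulated data. Correlations used 100000 permutations.

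The members, lists and tests were chosen with earlier results of these data known. For genes without a description the rule for named genes allowed, in each direction of a comparison, the 2 identifiers with the largest log2 value; others are named where a count is 5 or fewer, where they are neighbours or where they lie beside the threshold. Lists of genes by description were not usable. Alternatives were another pseudocount, filter, scaling, threshold, voom on recovered fragments, a replicate block, and leaving out libraries.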

Additional observations from a re-analysis of the deposited data

Results flagged for a closer look

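In the 20 genes, the 4 libraries of each time were searched for 1 library far from the other 3 (its gap to the nearest of them above Dixon's 95% critical share of the range, on the log2(FPKM + 1) scale). Of 100 such groups 3 were found, and chance gives about 1 in 20. The values below are FPKM, a scale on which no search was made. Potri.012G006800 at 12 h measured 19.4 FPKM in replicate 2 at 10 µM, against 32.9 to 35.4 FPKM in the others. Potri.017G081300 at 8 h measured 10.4 FPKM in replicate 2 at 10 µM, against 7.26 to 7.55 FPKM. Potri.002G229300 at 12 h measured 3.80 FPKM in replicate 1 at 10 µM, against 5.03 to 5.22 FPKM.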

How the results depend on the processing

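The number of genes that met the rule was 59 with a pseudocount of 0.1, all 20 among them, 48 with a drop of at least 0.6 (median drop 0.76) and 13 with a drop of at least 1.0. Quantile normalization gave 26 genes, again with all 20. Leaving out 1 library at a time gave 17 to 23 genes with median drops of 0.99 to 1.11, and 12 of the 20 met the rule in all 16 of these cases. In 2 alternatives chosen after seeing the data, the 20 genes held fixed had median drops of 1.02 to 1.15 with 1 library left out, and the median 8 h position was 1.14 with 1 gene of the neighbouring pair left out. Without replicate 1 at 200 µM and 24 h, 16 of the 20 remained; the 4 lost were Potri.009G140350, Potri.009G140400, Potri.012G006800 and Potri.017G081300. Genes past the threshold for the mean phosphate difference ranged from 0 to 1 when single libraries were left out, the 1 being Potri.007G062502 without replicate 1 at 10 µM and 24 h. With the replicate block, which pairs libraries of 1 number and time, 0 of the 20 passed for the mean difference or at any time; same-numbered libraries of the 2 levels deviated together at 2 h (r across genes 0.50) but not elsewhere (-0.24 to 0.07), so the numbers were not taken as pairs. The cause of these changes was not tested. Between 5 and 59 fragments in short members such as Potri.017G081300 limit their precision.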
